A study of Mus musculus with 8 samples.

Results

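Mucin-type glycan building enzymes were examined in exorbital lacrimal glands (LGs) of ad libitum (AL) fed and calorie-restricted (CR) mice. The members were the genes of the count table whose symbol begins with *Galnt*, *Gcnt*, *St3gal*, *St6gal*, *St8sia*, *B3gnt*, *B4galt*, *B3galt*, *Fut* or *Chst* followed by a digit or by the letter n. This rule uses names and no measured values, and it found 85 of the 24557 genes listed. Of the 85 members, 83 encode enzymes, and the remaining 2 are the pseudogene *Fut4-ps1* and the antisense RNA *St8sia3os*. By role, 16 enzymes add the first sugar (initiation), 5 make branches, 20 extend chains, 20 add sialic acid, 8 add fucose and 14 add sulfate. By substrate, 28 of the 83 work on mucin-type O-glycans, 31 extend or cap several classes of glycan, and 24 are known chiefly from other classes such as N-glycans, glycolipids and proteoglycans.

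All mice were female C57BL/6J and were 10 to 11 months old at collection. CR mice had received 40% less food for 4 months, from the age of 6 to 7 months, and AL mice of the same age ate freely. RNA of whole LGs gave 4 AL and 4 CR libraries of reads near the 3' ends of transcripts. The study drew mice from more than 1 cohort, and the labels do not give the cohort of each library, so cohort could not be examined as a batch.

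As background, mucin-type O-glycosylation takes place in the Golgi. A polypeptide GalNAc-transferase of the GALNT family attaches N-acetylgalactosamine to serine or threonine, *C1galt1* adds galactose to make the core 1 structure, and GCNT enzymes open a branch from it. Galactosyl- and N-acetylglucosaminyltransferases then lengthen the chains, and sialic acid, fucose or sulfate caps them. In the LG such glycans cover secreted tear proteins and the membrane mucins of the epithelium.

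Levels are given as CPM, counts scaled to a common library size, after scaling by relative log expression (RLE) factors. Reads came from 3' ends, so CPM was not divided by transcript length, and levels are compared within a gene rather than between genes except where shares are given. Library totals ran from 12051881 to 22156511 counts, and 3 counts, taken as the floor, corresponded to between 0.152 and 0.231 CPM. Such limits cover counting error only. Each diet was represented by 4 mice, and p-values weigh the difference between diets against the spread between their libraries.

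CR replicate 4 stood apart from CR replicates 1 to 3 in transcripts of other glands. The summed level of 8 parotid acinar transcripts, carried mostly by *Bpifa2*, *Car6* and the amylase *Amy1*, was between 12006 and 41256 CPM in the AL libraries and between 243193 and 299744 CPM in CR replicates 1 to 3, whereas CR replicate 4 had 54614 CPM. For 5 of the 8, CR replicate 4 was below the other CR libraries. For the other 3, the proline-rich protein genes *Prb1*, *Prh1* and *Prp2*, it was above CR replicate 3 (419 beside 233 CPM for *Prb1*). All 8 had a positive log2 fold change, and these 3 were called. A list of 8 submandibular and sublingual transcripts summed to between 18.3 and 498 CPM in AL, to between 3557 and 5750 CPM in CR replicates 1 to 3 and to 272 CPM in CR replicate 4. Its defining mucin *Muc19* and *Smgc* were at or near 0 in all 8 libraries. Secreted LG proteins summed to between 202695 and 246382 CPM in AL, to between 95189 and 146486 CPM in CR replicates 1 to 3 and to 218889 CPM in CR replicate 4. Gland epithelium markers summed to between 560 and 601 CPM in AL and between 676 and 711 CPM in CR, but several of them, *Aqp5* and *Bhlha15* among them, are also expressed in salivary glands. *Pax6*, a regulator of eye and LG development in the same list, went the other way, with 49.9 to 89.0 CPM in AL, 25.1 to 34.3 CPM in CR replicates 1 to 3 and 75.9 CPM in CR replicate 4 (log2 fold change -0.68 ± 0.31, edgeR, adjusted p = 0.3). White adipose markers did not overlap, at 4.35 to 11.0 CPM in AL and 17.4 to 55.1 CPM in CR. Duct and myoepithelium markers were at 69.4 to 105 CPM in AL and 40.2 to 73.1 CPM in CR, with 5 of 5 tested genes negative and 0 called by edgeR (3 had an unadjusted p under 0.05). Fibroblast markers were at 127 to 240 and 127 to 197 CPM, with 4 of 5 genes negative and *Col1a1*, a collagen chain, called lower. Skeletal muscle markers reached 49.6 CPM in CR replicate 2 and 31.3 CPM in CR replicate 4, beside at most 9.01 CPM in AL and 2.60 CPM in the other CR libraries. The part of these cell types in the members' values was not tested. Member values are therefore given for each library, in the order of replicates 1 to 4.

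Of the 85 members, 40 were counted often enough to be tested, 34 had counts but failed the filter, and 11 had no count in any library. Of the 40, 6 reached the filter's limit of 0.653 CPM in enough libraries through 1 diet alone, *B4galt5*, *Galnt11*, *Galnt18* and *St3gal2* through AL and *Galnt6* and *St6galnac4* through CR. The 11 were *B3gnt4*, *Chst4*, *Chst5*, *Fut4-ps1*, *Galnt13*, *Gcnt4*, *Gcnt7*, *St6gal2*, *St8sia3*, *St8sia3os* and *St8sia5*. Only 8 members had a mean above 10 CPM over the 8 libraries, with the sulfotransferase *Chst1* the highest at 542 CPM. A gene was called when the quasi-likelihood test of edgeR gave a Benjamini-Hochberg adjusted p under 0.05 and the fold change was at least 1.5. By this rule 2 of the 40 members were called higher in CR, *Galnt3* and *St3gal6*, and 0 were called lower. Over all 11211 genes tested, 1.98% were called, 1.20% higher and 0.785% lower. Before adjustment, p was under 0.05 for 15 members, or 37.5%, beside 16.7% of all genes, and 8 of these lay higher and 7 lower in CR. DESeq2 called 12 members, 7 higher and 5 lower, and 704 or 6.28% of all genes. Its calls were *Galnt3*, *Galnt6*, *Galnt12*, *Gcnt1*, *B4galt6*, *St3gal1* and *St3gal6* higher and *Galnt10*, *B3gnt2*, *St6galnac1*, *St6galnac2* and *St8sia4* lower. edgeR without a filter on low counts called 7 members, all higher, and 2.61% of all genes, and these were *Galnt1*, *Galnt3*, *Galnt6*, *Galnt15*, *Gcnt1*, *B4galt6* and *St3gal6*. Without CR replicate 4, edgeR called these 7 and *St3gal1* higher and *Chst1* lower, beside 6.14% of all genes, although *Galnt15* passed the filter of that fit only through its CR counts. limma's voom called *Galnt3*, *Gcnt1* and *St3gal6*, beside 3.54% of all genes.

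Log2 fold changes (CR over AL) of the 40 members ran from -1.34 to 3.82, with 16 positive, 24 negative and a median of -0.16, beside a median of 0.01 over all genes tested. The AL and CR libraries did not overlap for 8 members, or 20%, beside 9.79% of all genes. *Galnt3* and *Galnt12* lay higher in all CR libraries than in any AL library, as did 4.63% of all genes. *Galnt7*, *Galnt10*, *St6galnac1*, *St6galnac2*, *St8sia4* and *B3gnt2* lay lower in all of them, as did 5.16% of all genes. For another 12 members, or 30%, CR replicates 1 to 3 lay outside the AL range on the same side and CR replicate 4 did not, as in 8.96% of all genes. This second count was made after the values had been seen and is a description.

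**Figure D1:**
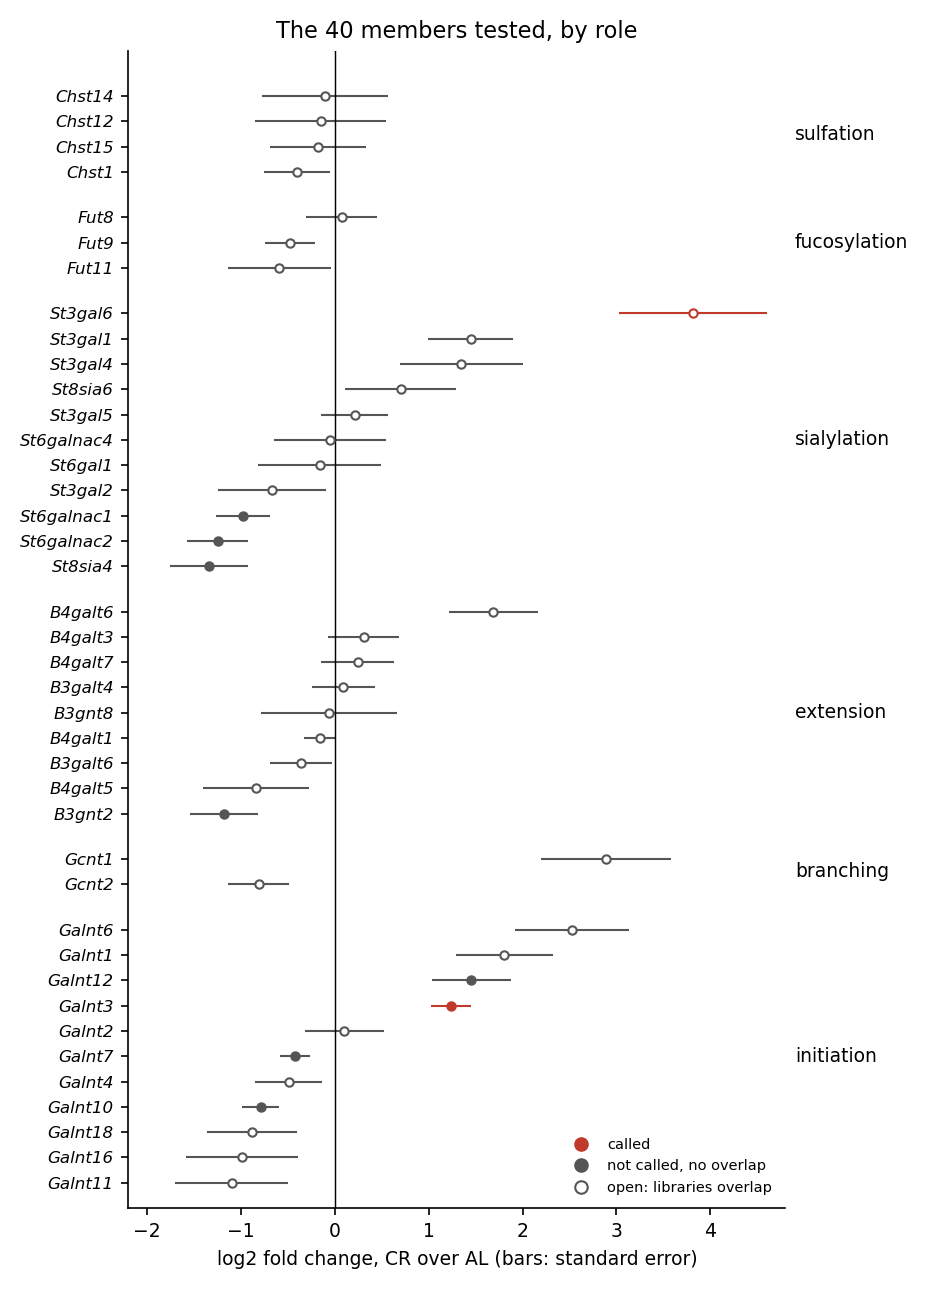
Log2 fold change (CR over AL, horizontal axis) of the 40 members tested, grouped by role, with bars for the standard error of edgeR's fit. Red marks the 2 members called, and open circles mark members whose AL and CR libraries overlapped. *St3gal6* (3.82) and *Gcnt1* (2.88) lay farthest to the right, and both overlapped.

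Of the initiating family, *Galnt3* was called higher in CR. It starts O-glycans, is known for protecting FGF23 from cleavage and lies at chr2:66082766-66124994 on the minus strand of GRCm38 (mm10). The AL libraries held 31.3, 39.3, 22.7 and 42.0 CPM of *Galnt3*, and the CR libraries held 80.0, 95.0, 80.8 and 63.2 CPM. Every CR library, replicate 4 included, was above every AL library. The means were 33.8 ± 8.68 and 79.7 ± 13.0 CPM (SD, n = 4 each), and the log2 fold change was 1.23 ± 0.21 (SE, adjusted p = 0.0161 by the quasi-likelihood test of edgeR, Benjamini-Hochberg). When single libraries were left out, *Galnt3* was called in 5 of 8 fits and was not called when AL replicate 1, CR replicate 2 or CR replicate 3 was missing, with log2 fold changes between 1.08 and 1.35.

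The 250 bases before the RefSeq starts of *Galnt3*, *Gcnt1* and *St3gal6* are shown because these 3 members had the highest CR means among the initiating, branching and sialylating enzymes. They are written 5' to 3' on the gene's strand of GRCm38.p6, and capitals mark the motif letters found among those searched.
Galnt3, chr2:66124794-66125043, minus strand: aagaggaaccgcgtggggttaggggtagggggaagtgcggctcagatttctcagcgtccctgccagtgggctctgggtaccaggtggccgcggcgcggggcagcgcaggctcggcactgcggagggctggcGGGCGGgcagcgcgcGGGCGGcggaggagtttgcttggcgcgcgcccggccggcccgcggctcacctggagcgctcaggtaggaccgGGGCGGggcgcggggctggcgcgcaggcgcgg
Gcnt1, chr19:17372845-17373094, minus strand: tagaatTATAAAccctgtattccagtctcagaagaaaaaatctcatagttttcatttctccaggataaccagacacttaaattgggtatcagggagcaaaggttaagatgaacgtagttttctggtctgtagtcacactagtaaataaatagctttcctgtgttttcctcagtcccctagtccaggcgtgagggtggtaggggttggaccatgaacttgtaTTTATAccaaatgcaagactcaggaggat
St3gal6, chr16:58523427-58523676, minus strand: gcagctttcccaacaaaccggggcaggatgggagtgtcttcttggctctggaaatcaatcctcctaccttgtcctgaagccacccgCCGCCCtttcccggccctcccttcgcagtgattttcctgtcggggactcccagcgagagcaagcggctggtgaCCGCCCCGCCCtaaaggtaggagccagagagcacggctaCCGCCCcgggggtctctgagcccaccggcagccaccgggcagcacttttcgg
The capitals in *Galnt3* and *St3gal6* are GC boxes (GGGCGG or its reverse complement CCGCCC), and those in *Gcnt1* are TATAAA or its reverse complement TTTATA. *Galnt3* had 3 GC boxes, which began at positions -119, -104 and -32 from the start. *St3gal6* had 4, at -164, -91, -86 and -52, of which the middle pair shared a base. In *Gcnt1* the TATAAA letters began at -244 and their reverse complement at -29. RefSeq lists 1 start for *Galnt3* and more for the other two genes, and for these a single start is shown, picked with the motif matches known. The other windows of *Gcnt1* and *St3gal6* held none of the motifs searched, and the start of *St3gal6* not shown lies nearer the annotated 5' end of the gene.

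A set of 6 motifs was searched on both strands in windows of 300 bases, 250 before and 50 after each start, for all 32851 RefSeq windows and the 84 windows of the 63 members that had an entry. The GC box was found in 59.5% of the member windows and in 35.7% of all windows. TATAAA was found in 1.19% and 13.6%, and the *Gcnt1* window shown was the only member window that held it. The E-box CACGTG was found in 7.14% and 7.15%, and the CRE letters TGACGTCA in 2.38% and 1.79%. No member window held the D-box letters TTATGTAA (0.938% of all windows) or the letters TGACGTGG of the unfolded protein response element (0.676%). These are matches of letters only.

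*Galnt7* and *Galnt10* act on peptides that already carry a GalNAc, and both lay lower in CR. *Galnt7* was counted at 59.8, 50.8, 52.6 and 46.5 CPM in AL and at 43.3, 39.6, 41.3 and 32.4 CPM in CR. The groups did not overlap, but the log2 fold change of -0.43 ± 0.16 was not called (edgeR, adjusted p = 0.198). *Galnt10* gave 25.7, 17.0, 22.4 and 20.5 CPM in AL and 15.6, 10.7, 10.3 and 13.0 CPM in CR. Its highest CR library was below its lowest AL library, and its log2 fold change was -0.79 ± 0.20 (edgeR, adjusted p = 0.0647). *Galnt10* was among the members that DESeq2 called, with an adjusted p of 0.0156.

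The makeup of the initiating family differed between diets in every library. *Galnt3* took 21.1, 28.9, 17.8 and 31.1% of all GALNT counts in AL and 35.0, 45.9, 44.2 and 45.3% in CR. The share of *Galnt7* was 40.3, 37.4, 41.2 and 34.4% in AL and 19.0, 19.1, 22.6 and 23.3% in CR. *Galnt7* was thus the larger of the pair in every AL library and *Galnt3* in every CR library. The ratio of *Galnt3* to *Galnt7* CPM ran from 0.432 to 0.902 in AL and from 1.85 to 2.40 in CR, and CR replicate 4, at 1.95, lay within the range of the other CR libraries. These shares use the same counts as the fold changes above and were described after those were known. Total GALNT counts were 137 ± 8.52 CPM in AL and 189 ± 38.1 CPM in CR (SD, n = 4 each), with 139 CPM in CR replicate 4, inside the AL range of 128 to 148 CPM.

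**Figure D2:**
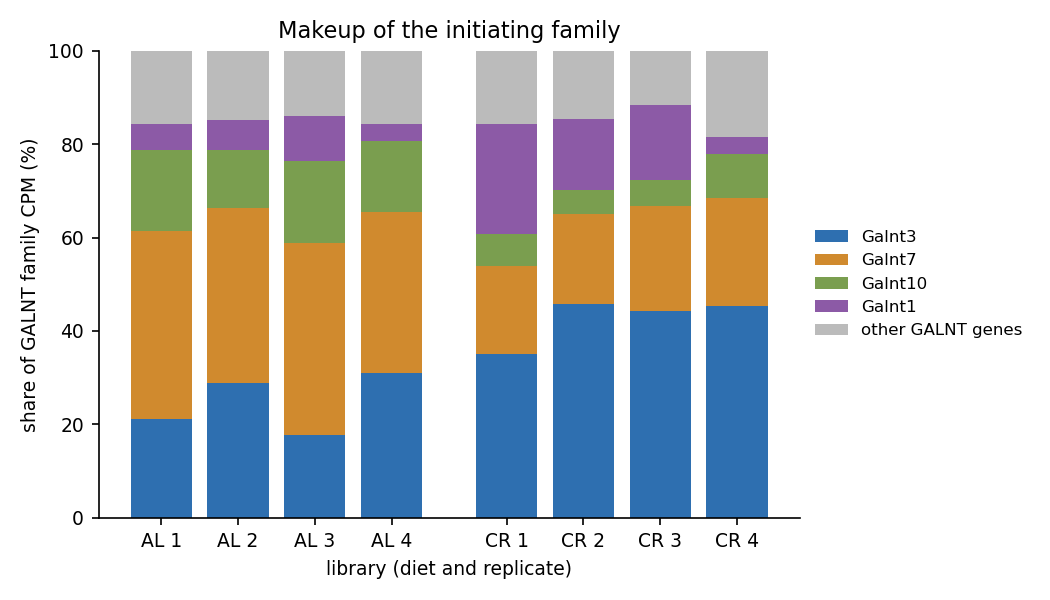
Share of summed GALNT family CPM (vertical axis, in percent) taken by *Galnt3*, *Galnt7*, *Galnt10*, *Galnt1* and the other members in each of the 8 libraries. The *Galnt3* share ran from 17.8 to 31.1% in AL and from 35.0 to 45.9% in CR, while the *Galnt1* share of CR replicate 4 (3.66%) was near that of AL replicate 4 (3.67%).

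*Galnt12*, another initiating enzyme, was counted at 2.54, 2.82, 1.89 and 0.810 CPM in AL and at 8.85, 5.51, 3.53 and 4.17 CPM in CR. All CR libraries were above all AL libraries, and the log2 fold change of 1.45 ± 0.42 was not called by edgeR (adjusted p = 0.104) but was by DESeq2 (adjusted p = 0.0198). *Galnt1*, a widely expressed initiating enzyme, gave 8.31, 8.63, 12.3 and 4.96 CPM in AL and 53.4, 31.7, 29.3 and 5.11 CPM in CR. The first 3 CR replicates were above all AL libraries, and CR replicate 4 lay at the low end of the AL range. The log2 fold change of *Galnt1* was 1.81 ± 0.52 (edgeR, adjusted p = 0.0983), and without CR replicate 4 it was 2.16 ± 0.30 and called (adjusted p = 0.00126). That was the only 1 of 8 fits with a library left out in which *Galnt1* was called (edgeR, adjusted p up to 0.225).

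*Galnt6*, a close relative of *Galnt3* named here after its values were seen, repeated the pattern of *Galnt1*. It stood at 2.39, 1.29, 1.52 and 0.608 CPM in AL and at 13.5, 11.6, 6.62 and 1.39 CPM in CR. Its log2 fold change was 2.53 ± 0.61 (edgeR, adjusted p = 0.0555), and CR replicate 4 again fell inside the AL range. *Galnt6* was called by DESeq2 (adjusted p = 0.000601) and by edgeR without CR replicate 4 (0.00174) or without a filter (0.0122). Of the 8 fits with a library left out it was called in 1 (edgeR, adjusted p up to 0.17). It reached the filter's limit in 3 AL and 4 CR libraries, and the CR libraries alone were enough to pass. These calls are therefore a description. The exons of *Galnt6* overlap the antisense RNA *Galnt6os* on the other strand, and whether the counting used strand is not given in the sources used here.

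*Galnt15*, which the study names among its glycosylation genes, was counted too rarely for edgeR's filter. The AL libraries held 1, 1, 3 and 1 counts, and the CR libraries held 28, 16, 19 and 9. All CR libraries, at 1.98, 0.947, 1.18 and 0.500 CPM, were thus above the AL libraries, at 0.0770, 0.0612, 0.218 and 0.0506 CPM. The ratio of summed counts, scaled by library size, was 11.6 (95% exact binomial interval 5.06 to 32.6, counting error only). An exact permutation test of mean CPM, two-sided, gave p = 0.0286, the smallest that 4 against 4 libraries allow, and 0.853 after adjustment over 5524 rarely counted genes. Among the 34 rarely counted members, *Galnt15* and the extending enzyme *B3gnt5* reached this smallest p, beside 3.35% of all rarely counted genes. edgeR without a filter on low counts called *Galnt15* higher (adjusted p = 0.0429).

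The remaining initiating enzymes overlapped between the diets. *Galnt18* was at 1.54, 2.69, 1.31 and 3.80 CPM in AL and at 0.637, 1.30, 1.24 and 1.89 CPM in CR, so CR replicates 1 to 3 lay below every AL library, the highest of them by a small margin, and CR replicate 4 did not. *Galnt2*, *Galnt4*, *Galnt11*, *Galnt16* and *Galnt18* had log2 fold changes between -1.10 and 0.10, and none of them had an unadjusted p under 0.05. Of the last 600 bases of *Galnt2*, 64.8% of the 75-base windows are shared with the overlapping gene *Gm20388*, so reads there could be split between both. *Galnt5*, *Galnt9* and *Galnt14* had at most 13 counts in all 8 libraries together.

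Branching rested on *Gcnt1*, which makes the core 2 branch of mucin-type O-glycans and lies at chr19:17326141-17372844 on the minus strand. It was counted at 14.3, 8.33, 6.17 and 2.33 CPM in AL and at 88.7, 78.8, 55.9 and 5.56 CPM in CR. CR replicates 1 to 3 were several times above the highest AL library, and CR replicate 4 lay below 3 of the 4 AL libraries. The log2 fold change was 2.88 ± 0.69 and missed the threshold (edgeR, adjusted p = 0.0555). Left out in turn, the libraries gave log2 fold changes between 2.57 and 3.36, and of these 8 fits *Gcnt1* was called in 1, without CR replicate 4 (adjusted p = 0.000941). With all libraries it was called by DESeq2 (adjusted p = 0.017), by limma's voom (0.0455) and by edgeR without a filter (0.00812). Its 3' end shared no 75-base window with another gene.

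*Gcnt2*, which makes the I branch on lactosamine chains, went the other way. It gave 11.8, 6.80, 9.22 and 6.58 CPM in AL and 5.31, 3.02, 3.59 and 7.61 CPM in CR. CR replicates 1 to 3 were below every AL library, and CR replicate 4 was above the lower pair of AL libraries. With a log2 fold change of -0.81 ± 0.32 it was not called (edgeR, adjusted p = 0.218). *Gcnt1* thus took 93.7 to 96.0% of GCNT counts in CR replicates 1 to 3, 38.9% in CR replicate 4 and 26.1 to 54.9% in AL. *Gcnt3*, a core 2 and core 4 enzyme of mucin-secreting epithelia, was rarely counted, from 0 to 0.726 CPM in AL and from 0.186 to 1.11 CPM in CR.

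**Figure D3:**
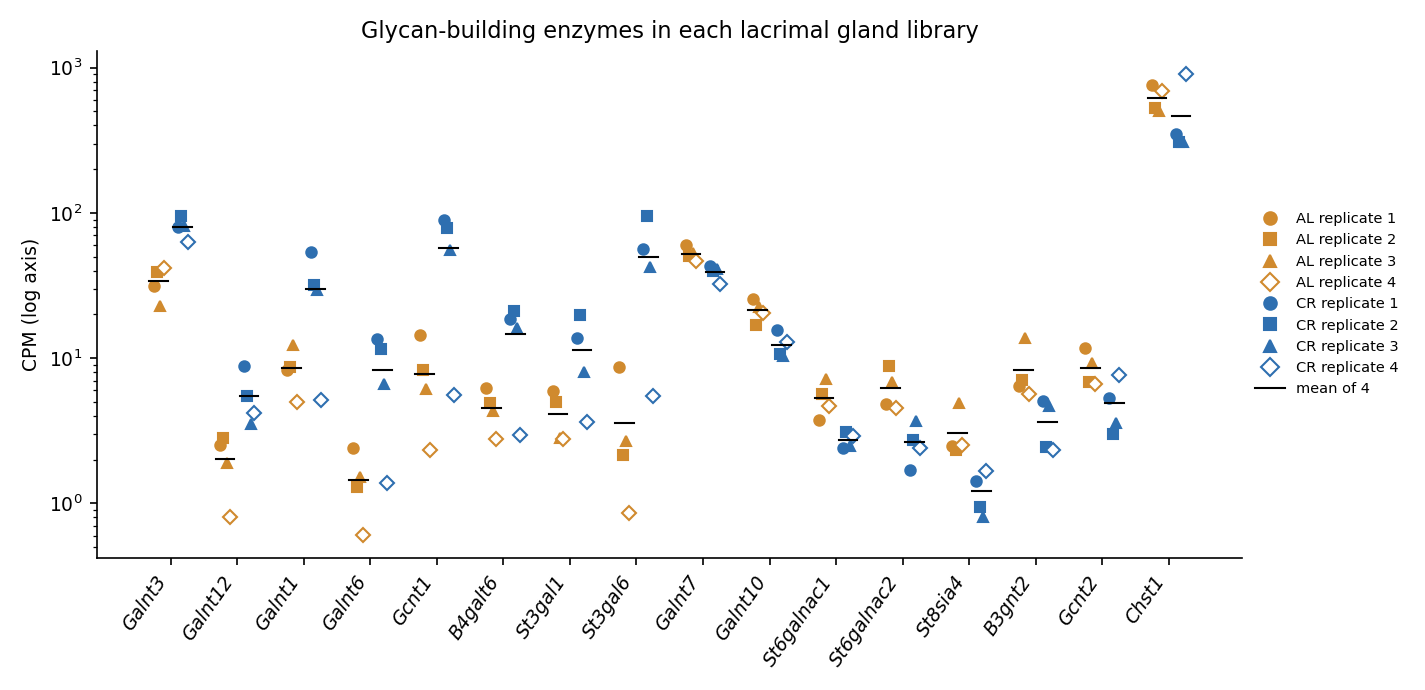
CPM (vertical log axis) of 16 members in each AL (orange) and CR (blue) library, with a symbol for each replicate, open diamonds for replicate 4 and a black line at the mean of 4. For *Gcnt1*, *St3gal6*, *Galnt1*, *Galnt6*, *B4galt6* and *St3gal1* the open blue diamond sits among the AL points, and for *Galnt3* it sits with the other CR points at 63.2 CPM.

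Among the enzymes that extend chains, *B4galt1*, the main galactosyltransferase of lactosamine chains and part of lactose synthase, made up 74.8 ± 3.34% of the counts in AL and 69.2 ± 8.76% in CR. It was counted at 109, 76.2, 95.1 and 78.9 CPM in AL and at 91.2, 75.5, 74.8 and 80.7 CPM in CR. The groups overlapped, and the log2 fold change was -0.16 ± 0.17 (edgeR, adjusted p = 0.715). *B4galt6*, known for making lactosylceramide rather than mucin glycans, gave 6.24, 4.90, 4.35 and 2.78 CPM in AL and 18.7, 21.1, 16.1 and 2.94 CPM in CR. Again CR replicates 1 to 3 were above all AL libraries and CR replicate 4 was not. Its log2 fold change was 1.69 ± 0.48 (edgeR, adjusted p = 0.0927). *B4galt6* was called by DESeq2 (adjusted p = 0.00878) and by edgeR without CR replicate 4 (0.000957) or without a filter (0.0312). Of the 8 fits with a library left out it was called in 1 (edgeR, adjusted p up to 0.253).

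*B3gnt2*, which builds polylactosamine, lay lower in CR. The AL libraries held 6.47, 7.10, 13.6 and 5.67 CPM and the CR libraries 5.10, 2.43, 4.70 and 2.33 CPM, without overlap. Its log2 fold change was -1.18 ± 0.36 (edgeR, adjusted p = 0.119, and DESeq2, adjusted p = 0.037). Of its 3' windows of 75 bases, 81.6% are shared with *Gm12057* or *Gm28048*, so the value is uncertain. *B3gnt5*, the enzyme that starts lacto-series glycolipids, had 4, 2, 2 and 4 counts in AL and 0 in each CR library, around the floor in both groups. *B3galt5*, which makes type 1 chains and was named after its values were seen, had 0, 0.0612, 0.0726 and 0.709 CPM in AL and 2.41, 1.48, 1.79 and 0.278 CPM in CR. CR replicates 1 to 3 were above all AL libraries and CR replicate 4 was below AL replicate 4 (exact permutation test, two-sided, p = 0.0571, adjusted p = 1).

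Of the sialyltransferases, *St3gal6* was called higher in CR. It caps lactosamine chains with sialic acid in α2,3 linkage and takes part in making selectin ligands, and it lies at chr16:58468125-58524243 on the minus strand. Its level was 8.70, 2.14, 2.69 and 0.861 CPM in AL and 56.4, 94.7, 42.4 and 5.50 CPM in CR. CR replicates 1 to 3 were far above the AL libraries, whereas CR replicate 4 was below AL replicate 1. The log2 fold change was 3.82 ± 0.79 (adjusted p = 0.0334 by the quasi-likelihood test of edgeR, Benjamini-Hochberg). When single libraries were left out, *St3gal6* was called in 2 of 8 fits, without AL replicate 1 and without CR replicate 4. Its log2 fold changes over the 8 lay between 3.31 and 4.73. Exons of *St3gal6* overlap *Dcbld2* on the other strand.

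*St3gal1*, which sialylates core 1, had 5.93, 5.02, 2.83 and 2.78 CPM in AL and 13.8, 19.8, 7.98 and 3.61 CPM in CR. The related *St3gal4*, named after its values were seen, had 0.924, 0.674, 1.09 and 0.253 CPM in AL and 1.77, 2.49, 2.85 and 0.333 CPM in CR. In both, CR replicates 1 to 3 were above all AL libraries and CR replicate 4 lay within the AL range. Neither was called by edgeR, with log2 fold changes of 1.45 ± 0.46 and 1.35 ± 0.65 (adjusted p = 0.124 and 0.329). *St3gal1* was called by DESeq2 (adjusted p = 0.0282) and by edgeR without CR replicate 4 (0.012). With single libraries left out *St3gal1* was called in 1 of 8 fits (edgeR, adjusted p up to 0.358).

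*St6galnac1* and *St6galnac2* attach sialic acid to the first GalNAc, with *St6galnac1* known for the sialyl-Tn antigen. *St6galnac1* was counted at 3.77, 5.69, 7.19 and 4.71 CPM in AL and at 2.41, 3.08, 2.47 and 2.89 CPM in CR. *St6galnac2* gave 4.85, 8.76, 6.90 and 4.56 CPM in AL and 1.70, 2.72, 3.71 and 2.39 CPM in CR. Both lay lower in every CR library, replicate 4 included, than in any AL library. Their log2 fold changes of -0.98 ± 0.29 and -1.25 ± 0.33 were not called (edgeR, adjusted p = 0.107 and 0.0731), while DESeq2 gave adjusted p of 0.036 and 0.0113.

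*St8sia4*, a polysialic acid synthase, followed the same course with 2.46, 2.33, 4.94 and 2.53 CPM in AL and 1.42, 0.947, 0.804 and 1.67 CPM in CR. Its log2 fold change was -1.34 ± 0.42 (edgeR, adjusted p = 0.12, and DESeq2, adjusted p = 0.0387). AL replicate 3, the highest, was also the library with the highest summed macrophage markers, 238 CPM beside 82.9 to 117 CPM in the other AL libraries and 53.0 to 101 CPM in CR. Of the other leukocyte lists, B cell markers did not overlap, at 2.53 to 12.1 CPM in AL and 0.425 to 1.28 CPM in CR. Plasma cell markers were at 13.4 to 37.7 and 8.78 to 15.1 CPM, and T cell markers at 1.62 to 8.49 and 0.778 to 1.72 CPM. The part of these cells in the value of *St8sia4* was not tested. In whole-gland RNA, fewer cells of a type and less RNA per cell cannot be told apart. Summed over all 20 sialyltransferases, the level was 30.8 ± 6.05 CPM in AL and 76.5 ± 43.0 CPM in CR (SD, n = 4 each), with 26.3 CPM in CR replicate 4, so the sum overlapped between diets.

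Of 3 fucosyltransferases tested, edgeR called 0, DESeq2 called 0, and 0 had an unadjusted p under 0.05. *Fut9*, which makes the Lewis x structure, took most of the family's counts and gave 6.54, 13.3, 10.9 and 9.62 CPM in AL and 5.59, 9.24, 5.88 and 8.28 CPM in CR. The groups overlapped, with a log2 fold change of -0.48 ± 0.26 (edgeR, adjusted p = 0.404). *Fut8*, the core fucose enzyme of N-glycans, and *Fut11* had log2 fold changes of 0.07 ± 0.38 and -0.59 ± 0.55 (edgeR, adjusted p = 0.955 and 0.661). Among the rarely counted members were *Fut1* and *Fut2*, which make the H antigen, and *Fut2* had 2 counts in all.

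Sulfation was almost entirely *Chst1*, which sulfates galactose in keratan sulfate and lactosamine chains. It took between 98.3 and 99.6% of the CHST counts in each library. *Chst1* stood at 760, 523, 499 and 686 CPM in AL and at 351, 307, 306 and 907 CPM in CR. CR replicates 1 to 3 were below all AL libraries, and CR replicate 4 was the highest of all 8. The log2 fold change of -0.40 ± 0.35 was not called (edgeR, adjusted p = 0.638). Without CR replicate 4 it was -0.95 ± 0.23 and called lower (adjusted p = 0.0287). That was the only 1 of 8 fits with a library left out in which *Chst1* was called (edgeR, adjusted p up to 0.861). *Chst14* and *Chst15*, which act on dermatan and chondroitin sulfate, had log2 fold changes of -0.11 ± 0.67 and -0.18 ± 0.51 (edgeR, adjusted p = 0.966 and 0.913).

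*Chst4* and *Fut7* make the sulfated and fucosylated L-selectin ligands of high endothelial venules. *Chst4* had 0 counts in all 8 libraries, which allows up to 0.152 to 0.231 CPM. *Fut7* was between 0 and 0.363 CPM in AL and between 0 and 0.0708 CPM in CR. Of the venule markers, *Madcam1* was at 0 throughout, and *Glycam1* was between 0.539 and 1.96 CPM in AL and between 0 and 0.0556 CPM in CR. At this depth a difference in *Fut7* or *Chst4* was not detectable.

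The members that lay higher in CR replicates 1 to 3 and not in CR replicate 4 were picked after their values were seen. The summed parotid transcripts were likewise lower in CR replicate 4 than in the other CR libraries. That sum was still above the AL sums, but the single transcripts differed. *Bpifa2* and *Amy1* fell inside the AL range in CR replicate 4, as these members did. *Bpifa2* was at 13705 CPM there and at 190 to 17728 CPM in AL. *Amy1* was at 3278 CPM there and at 45.3 to 5625 CPM in AL. For the other 6, *Car6* among them, the diets did not overlap. The submandibular and sublingual sum of CR replicate 4, 272 CPM, was also inside its AL range of 18.3 to 498 CPM. A parotid score, the mean log2 CPM of the 8 parotid transcripts, was 7.84, 6.09, 6.58 and 2.62 in AL and 12.0, 13.1, 10.5 and 9.66 in CR. By the score, as by the parotid sum, CR replicate 4 lay above every AL library. Its *Gcnt1* level of 5.56 CPM was below the 14.3 CPM of AL replicate 1, and the part of salivary tissue in these members' values was not tested. With this score as a covariate, edgeR called 0 members and 0.0268% of all genes (7 members had an unadjusted p under 0.05, beside 10.7% of all genes), the smallest adjusted p of a member was 0.274, and only 4 of the 16 positive log2 fold changes stayed positive. *St3gal6* went from 3.82 to -0.08, *Gcnt1* from 2.88 to -0.25, *Galnt6* from 2.53 to -0.34 and *Galnt1* from 1.81 to -0.04. *Galnt3* was at 1.40 ± 0.44, beside 1.23 ± 0.21 without the score, and was not called (edgeR, adjusted p = 0.344). Of the 24 negative log2 fold changes, 21 stayed negative, and *Galnt10* was at -0.97 and *St6galnac2* at -1.38. The score did not overlap between the diets, which widened the standard errors of this fit, and diet and score cannot be told apart in these libraries. *Chst1* was lowest in CR replicates 1 to 3, the libraries with the lowest summed secreted LG proteins, and the part of that list in its value was not tested.

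**Figure D4:**
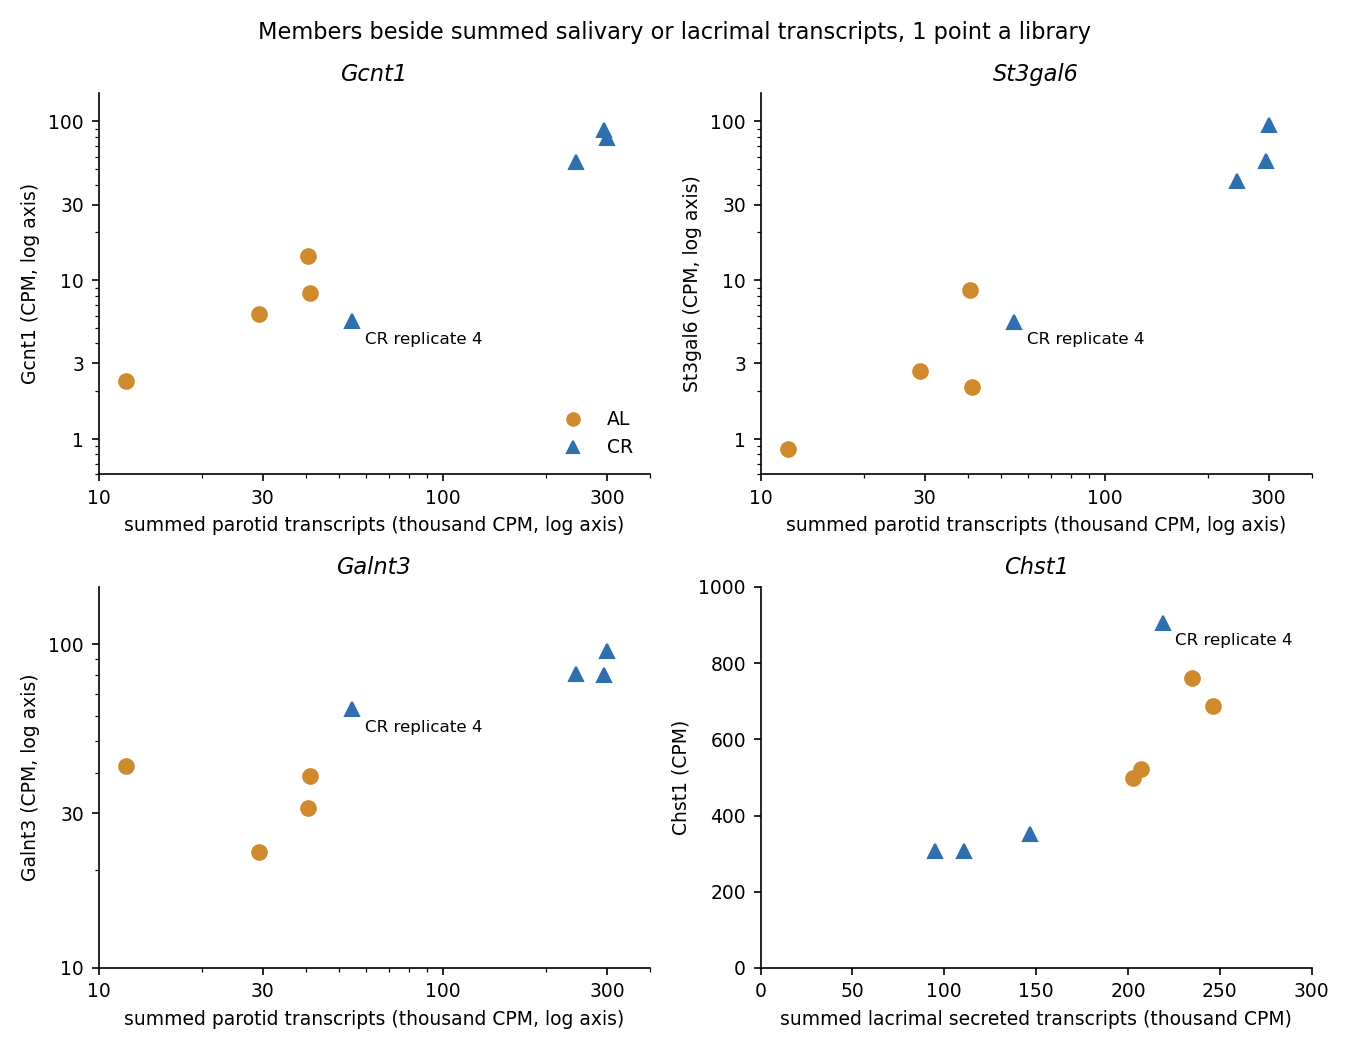
CPM of *Gcnt1*, *St3gal6* and *Galnt3* against summed parotid transcripts (log axes) and of *Chst1* against summed secreted LG proteins (linear axes from 0), with a point for each AL (circle) and CR (triangle) library. CR replicate 4 lies near the AL libraries on the horizontal axis in all 4 panels, and on the vertical axis too for *Gcnt1* (5.56 CPM) and *St3gal6* (5.50 CPM), but above all AL libraries for *Galnt3* (63.2 CPM) and *Chst1* (907 CPM).

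**Figure D5:**
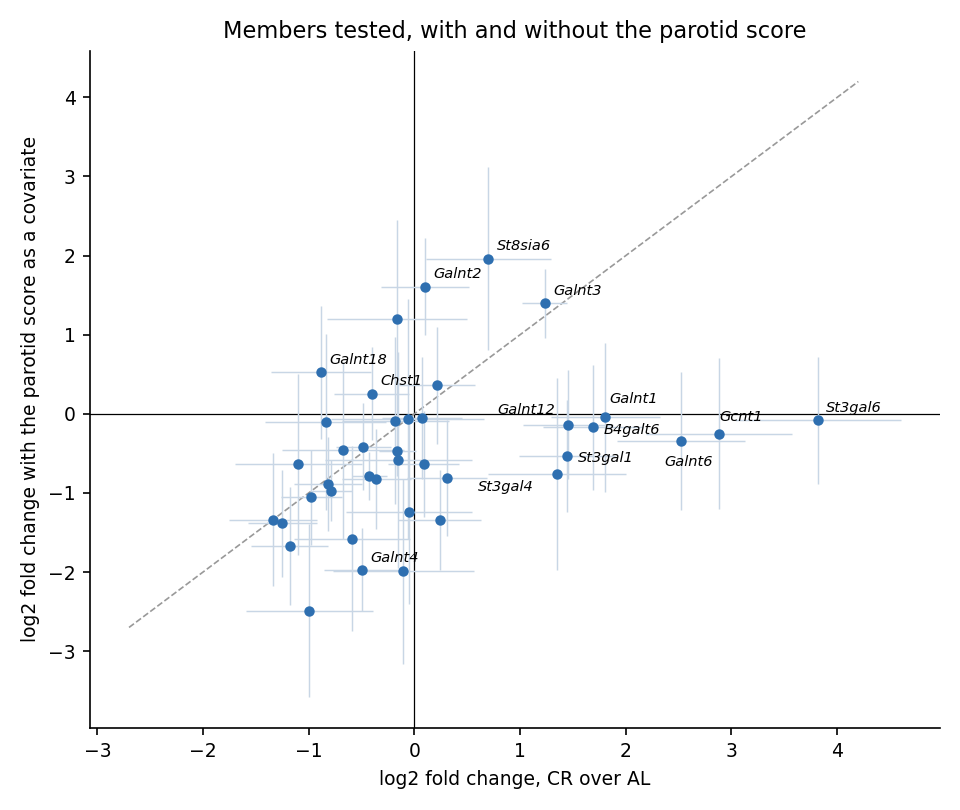
Log2 fold change (CR over AL) of the 40 members tested without (horizontal axis) and with (vertical axis) the parotid score as a covariate, with bars for the standard error and a dashed line where both are equal. *Galnt3* lies near the dashed line at 1.23 and 1.40, and *St3gal6*, *Gcnt1*, *Galnt6* and *Galnt1* lie near 0 on the vertical axis.

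Genes that supply or complete the same pathways were described from 5 lists of 80 genes, of which 70 were tested and 4 called, beside 1.98% of all genes tested. DESeq2 called 8, these 4, *B4galnt2*, *Galk1*, *Mgat4a* and *C1galt1*, the last of which passed the filter through its CR libraries alone. Among 15 other enzymes of O-GalNAc glycans, 8 were tested, and *Abo*, the blood group A and B transferase, was called lower. It had 38.0, 26.9, 40.2 and 24.3 CPM in AL and 16.8, 15.3, 13.2 and 21.2 CPM in CR, without overlap, and a log2 fold change of -0.96 ± 0.22 (edgeR, adjusted p = 0.0451). With single libraries left out it was called in 2 of 8 fits, without AL replicate 4 and without CR replicate 4 (adjusted p from 0.0111 to 0.153 over the 8). *C1galt1*, the core 1 synthase, gave 1.08, 0.122, 0.508 and 0.0506 CPM in AL and 3.89, 2.72, 2.47 and 0.944 CPM in CR, and CR replicate 4 overlapped AL replicate 1. It was chosen after its values were seen and reached the filter's limit in 1 AL library and 4 CR libraries, so its values are a description. *B4galnt2*, which makes the Sda antigen, did not overlap, with 14.1 ± 9.36 CPM in AL and 50.9 ± 21.0 CPM in CR, and was not called (edgeR, adjusted p = 0.0581).

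In sugar donor synthesis 22 of 22 genes were tested, with a median log2 fold change of 0.14, and *Papss2* was called. *Papss2* makes PAPS, the sulfate donor of all CHST enzymes, and was counted at 124, 108, 124 and 101 CPM in AL and at 54.0, 43.5, 55.7 and 80.0 CPM in CR. All CR libraries lay below all AL libraries, and the log2 fold change was -0.98 ± 0.20 (edgeR, adjusted p = 0.0334). *Papss2* too was called in 2 of 8 fits, without AL replicate 4 and without CR replicate 4 (adjusted p from 0.00253 to 0.116). *Galk1*, which phosphorylates galactose, did not overlap and lay higher in CR, but was not called (log2 fold change 0.78 ± 0.23, edgeR, adjusted p = 0.104). The 14 Golgi transporters of sugar and sulfate donors had a median of 0.08, with 0 called by edgeR or DESeq2 and 1 at an unadjusted p under 0.05. This was *Slc35c2*, linked to GDP-fucose transport, which had the only non-overlapping libraries among them (0.38 ± 0.15, edgeR, adjusted p = 0.208). The 13 genes of Golgi upkeep, the COG complex among them, had a median of 0.08, with 0 called by edgeR or DESeq2 and 0 at an unadjusted p under 0.05.

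Among 16 genes of N-glycan processing, 13 were tested and 2 were called in opposite directions. *Man1a*, a Golgi mannosidase of the first trimming step, was at 16.0, 13.3, 12.7 and 15.7 CPM in AL and at 47.1, 68.4, 48.5 and 20.8 CPM in CR. *Man2a2*, a Golgi mannosidase of the later step, was at 53.7, 34.4, 29.5 and 28.2 CPM in AL and at 9.98, 11.1, 10.8 and 15.4 CPM in CR. Neither overlapped between diets, and the log2 fold changes were 1.67 ± 0.29 and -1.62 ± 0.24 (edgeR, adjusted p = 0.0172 and 0.00697). *Man2a2* was called in 8 of 8 fits that left out a library, and *Man1a* in 3, when AL replicate 4 was missing or when either CR replicate 1 or 4 was (adjusted p from 0.000199 to 0.072). *Mgat4a*, which adds an N-glycan branch, did not overlap either and lay higher in CR (0.95 ± 0.26, edgeR, adjusted p = 0.0844). Exons of *Man1a* overlap *Gm16998* and those of *Man2a2* overlap *Hddc3* on the other strand. With the parotid score as a covariate, 0 genes of the 5 lists were called by edgeR, and 12 of the 70 tested had an unadjusted p under 0.05, beside 10.7% of all genes.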

How the data were processed

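RNA of whole LGs from 4 AL and 4 CR mice was sequenced from the 3' ends of transcripts (Lexogen QuantSeq FWD, single reads of 75 bases). Per the submitters' processing notes, FastQC, cutadapt, STAR, HTSeq and DESeq2 were used with the build mm10, and versions and the strand setting of the counting are not given in the sources used here. The authors deposited raw counts per gene, which were analysed here, and log2 values of the normalized counts, which were recomputed from the counts with RLE factors to within 0.000124 and not used further. Such counts near the 3' end do not depend on transcript length but miss ends that the annotation lacks, and a few very abundant transcripts (the 10 most counted genes of a library took 62.4 to 73.4% of it) leave less depth for the enzymes.

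Of 24557 genes, 5 repeated symbols were dropped, 16735 had a count and 11211 passed filterByExpr. The diet in the labels gave the groups. The comparison of CR with AL used edgeR 4.0.16 under R 4.3.3 (RLE factors, glmQLFit and glmQLFTest), with p-values adjusted by the Benjamini-Hochberg method over all genes tested. Standard errors were taken as the absolute log2 fold change over the root of the F statistic. Genes that failed the filter were compared by exact permutation tests of mean CPM. The biological coefficient of variation was 34.7%. The ranges of the totals and floors stand in the report, and the code was tested on simulated data.

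The members and gene lists were chosen with earlier results of these data known. Members are named if they were called, if their libraries did not overlap, if they were among the 3 most counted of their role, if the study names them, or if they belong to high endothelial venules, and *Galnt6*, *St3gal4* and *B3galt5* were added after their values were seen. In the lists outside the rule, called or non-overlapping genes are named. As alternatives the test was rerun with upper-quartile or TMM factors, in DESeq2 1.42.0, in limma 3.58.1 (voom, quality weights), with all genes kept or only those with 10 counts or more in each library, with no limit on the fold change, with the replicate number blocked, minus each library in turn, with the parotid score in the model, and minus the 50 most counted genes. For the rarely counted members, leaving out libraries was chosen after seeing the data. Positions come from GENCODE vM21 on GRCm38, where all 85 members were found, and promoter windows from RefSeq (GRCm38.p6), where 63 members had an entry.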

Additional observations from a re-analysis of the deposited data

Results flagged for a closer look

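In 5 of 54 groups of 4 libraries of a named member, 1 library lay far from the other 3 by the limit of Dixon's test. For normally distributed values such a gap would arise in about 1 of 20 groups. That rate need not hold here, since some of these levels lie near the floor and some members were named for their values. In CR replicate 4, *Chst1* was at 907 CPM while the other CR libraries were between 306 and 351 CPM, and *Gcnt3* was at 1.11 CPM beside 0.186 to 0.283 CPM. In AL replicate 3, *St8sia4* was at 4.94 CPM beside 2.33 to 2.53 CPM, and *Galnt15* was at 0.218 CPM, which is 3 counts, beside 0.0506 to 0.0770 CPM. In AL replicate 4, *B3galt5* was at 0.709 CPM beside 0 to 0.0726 CPM.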

How the results depend on the processing

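The count of 2 members called was 2 with TMM and upper-quartile factors, with at least 10 counts in every library, without a fold-change threshold and without the 50 most counted genes, and 3 with voom. It was 12 with DESeq2, 7 without a filter and 0 with the parotid score in the model, and between 0 and 9 when single libraries were left out, with 9 without CR replicate 4. The count of 4 genes in the pathway lists was 8 with DESeq2, 7 with voom and 0 with the parotid score, and 1 to 7 with single libraries left out. Over all genes, 222 became 704 with DESeq2, 397 with voom, 436 without a filter, 3 with the parotid score and 61 to 700 with single libraries left out. Of the rarely counted members, 0 passed the permutation test after adjustment. Of these, edgeR called 1 without a filter, *Galnt15*, and when single libraries were left out it called *Galnt15* (without CR replicate 4) and *B3galt5* (without AL replicate 4). Both passed the filter of those fits only through their CR counts, so these calls support nothing.

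Whether the replicate numbers pair the libraries is not settled by these values, and the main fit did not use them. The correlations of deviations from the group means were 0.149, 0.0795, 0.245 and 0.462 for numbers 1 to 4, all positive. Between libraries of different numbers they ran from -0.393 to 0.324, so AL replicate 4 and CR replicate 4 were the most alike. Not every library correlated best with its own number. With the replicate number as a block, 11 members, 8 pathway genes and 700 of all genes (6.24%) were called. The 11 were *Galnt3*, *St3gal6*, *Galnt1*, *Galnt6*, *Galnt10*, *Galnt12*, *Gcnt1*, *B3gnt2*, *B4galt6*, *St3gal1* and *St6galnac2*, and the log2 fold change of *Chst14* was 0.045.

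Adding the parotid score to the model changed the direction of 15 of the 40 members tested, namely *St3gal6* (-0.082), *Galnt12* (-0.14), *Galnt1* (-0.042), *Gcnt1* (-0.25), *B4galt6* (-0.17), *St3gal1* (-0.53), *Fut8* (-0.052), *Chst1* (0.26), *Galnt6* (-0.34), *St3gal4* (-0.76), *B3galt4* (-0.63), *B4galt3* (-0.81), *B4galt7* (-1.34), *Galnt18* (0.53) and *St6gal1* (1.19), and the cause was not tested. With single libraries left out it changed in at least 1 fit for 11 of the 40, namely *Chst14* (-0.56 to 0.48), *Chst15* (-0.46 to 0.084), *Fut11* (-0.91 to 0.075), *Fut8* (-0.017 to 0.26), *B3galt4* (-0.023 to 0.27), *B3gnt8* (-0.41 to 0.73), *B4galt7* (-0.055 to 0.49), *Chst12* (-0.48 to 0.20), *Galnt2* (-0.50 to 0.43), *St6gal1* (-0.84 to 0.14) and *St6galnac4* (-0.42 to 0.16). Among the members named, it also changed with voom for *Chst15* (0.33). None of these 11 was called under any alternative run. The depth limits the 34 rarely counted members, at 0.0139 to 0.850 CPM on average.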

Other observations

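A few further members showed the course of *Gcnt1* or its mirror image at low levels. *B3galt2*, a type 1 chain galactosyltransferase, was between 0 and 0.429 CPM in AL, at 0.495, 1.13 and 0.804 CPM in CR replicates 1 to 3 and at 0.111 CPM in CR replicate 4 (exact permutation test, two-sided, p = 0.0857, adjusted p = 1). *B4galt5*, which makes lactosylceramide like *B4galt6*, was at 1.08, 1.71, 1.81 and 1.16 CPM in AL and at 0.566, 0.474, 0.371 and 1.78 CPM in CR. *B4galt5* thus lay below the AL range in the 3 CR libraries in which *B4galt6* lay above it, with a log2 fold change of -0.84 ± 0.57 (edgeR, adjusted p = 0.511). *St3gal2*, which sialylates gangliosides and core 1, was at 1.54, 1.16, 2.83 and 1.01 CPM in AL and at 0.920, 0.533, 0.495 and 2.11 CPM in CR (edgeR, adjusted p = 0.624). These members were chosen after their values were seen.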
